A study of Danio rerio with 4 samples.

Results

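The neuregulin, Egf-like ligand and Erbb receptor genes were described in heart ventricles of adult zebrafish, taken 24 h after the organ had been injured by freezing a part of it (cryoinjury). Of 9 genes chosen by name, 6 were analysed, among the 17221 genes of the table: the ligand genes *nrg1*, *nrg2a*, *hbegfa* and *hbegfb* and the receptor genes *egfra* and *erbb2*. The receptor genes *erbb3a*, *erbb3b* and *erbb4a* were not analysed here. Both groups were of strain AB, cryoinjured and heat-shocked at 39 °C. The comparison is between WT fish and transgenic fish, Tg(hsp70l:sflt4), in which the heat-inducible *hsp70l* promoter drives sflt4, the Vegfc receptor Flt4 in a soluble form. That promoter is not restricted to a cell type. Each group had 2 libraries, each from a pool of 3 ventricles. Whether the pools came from separate clutches or experiments is not in the labels, and p-values therefore measure only the spread between these libraries, which may be technical. In whole ventricles, fewer cells of a type and less RNA per cell cannot be told apart.

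Neuregulins and the Egf-like ligands are made as membrane proteins, cut free by surface proteases, and bind Erbb receptor tyrosine kinases on neighbouring cells. The receptors work in pairs. Nrg1 and Nrg2 bind Erbb3 or Erbb4, and Hbegf binds Egfr or Erbb4, while Erbb2 has no known ligand of its own and acts as the partner chain. Trabeculation of the developing heart needs Erbb2 signaling, for which the required ligand is Nrg1 in mouse and Nrg2a in zebrafish. In the injured zebrafish heart Nrg1 is known as a mitogen for cardiomyocytes.

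The values are normalized reads, that is read counts that the authors divided by a factor per library and rounded. They sum to 34096403 and 33799004 in WT replicates 1 and 2 and to 30171847 and 32774116 in Tg(hsp70l:sflt4) replicates 1 and 2. Reads assigned to *flt4* numbered 618 and 515 in the WT pools versus 504 and 538 in the transgenic pools, and whether its reads report the transgene is not known from the sources used here. Heart muscle markers, which check the labelled tissue, were abundant in every library. Their summed level over 6 of 7 listed genes was 684091 and 662968 in WT against 533786 and 552252 in Tg(hsp70l:sflt4), so the sums did not overlap, and none of the genes was at 0. Most of that difference was in *myl7* (335222 and 316610 against 204313 and 245157). By gene, 2 of the 6 had both WT libraries above both transgenic ones, and *nppa* (117943 and 93919 against 127939 and 97173) and *nppb* (40700 and 33828 against 46845 and 35607) had the higher mean in Tg(hsp70l:sflt4). Macrophage markers (7 of 7 genes) summed to 22007 and 28751 in WT against 30619 and 40115, with 4 genes higher in both transgenic libraries and 1, *csf1ra* (2129 and 1179 against 1165 and 829), higher in both WT libraries. Thrombocyte markers (4 of 4) summed to 4602 and 5839 against 3555 and 4253, with 2 genes higher in both WT libraries. These were *itga2b* (911 and 1567 against 627 and 745) and *thbs1b* (3019 and 3406 against 2293 and 2666). The largest part of each sum was *thbs1b*, and *gp1bb* and *mpl* overlapped between the groups. The skeletal muscle list (4 of 5 genes, nearly all of it reads of *ckma*) summed to 52224 and 42447 against 38837 and 36696, with 2 genes separated in each direction. Higher in both transgenic libraries were *mybpc2b* (0 and 0 against 105 and 190) and *tnnt3b* (18 and 18 against 24 and 21). The summed levels of 6 further lists overlapped between the groups, as did that of erythrocytes. These 6 were endothelium, epicardium, mural cells and fibroblasts, Schwann cells, neurons and neutrophils. Lack of overlap is common with 2 libraries per group and was seen for 43.2% of all genes with a mean of at least 10.

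No member passed the test of Tg(hsp70l:sflt4) against WT. The test was limma on log2(value + 1) with Benjamini-Hochberg adjustment over all 17071 genes with a mean of at least 10, at a threshold of 0.05. All 6 members were among the genes tested. Across the table limma called 0% of genes, with a smallest adjusted p of 0.154, and 11.0% of genes (1881) had an unadjusted p under 0.05, made up of 5.57% with higher and 5.45% with lower values in Tg(hsp70l:sflt4). By limma-voom the count called was 0 as well, and 1839 genes had an unadjusted p below 0.05. None of the 6 members had an unadjusted p under 0.05. The groups did not overlap for 43.2% of genes tested, and they did not overlap for 1 of the 6 members, *nrg1*. With 2 libraries against 2, an exact two-sided permutation test cannot give a p below 0.333.

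**Figure D1:**
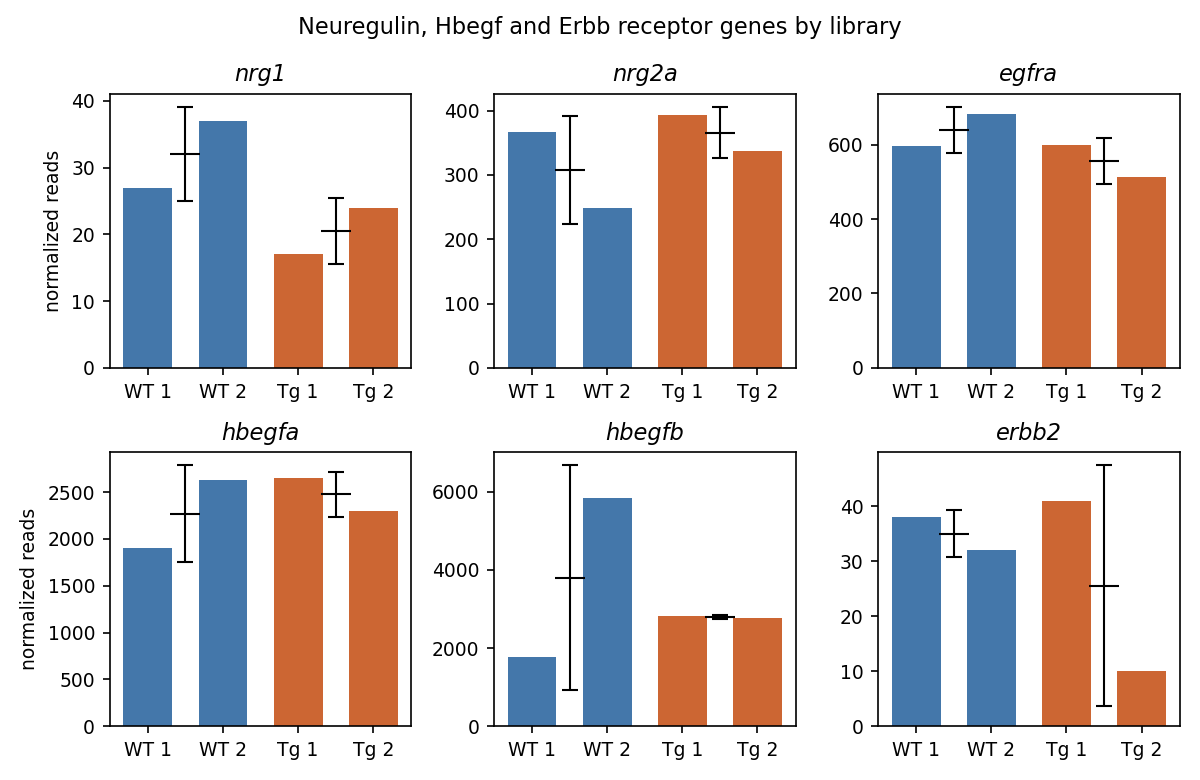
Normalized reads (vertical axes, from 0) of the 6 genes in each library, WT in blue and Tg(hsp70l:sflt4) in orange. The black marks give each group's mean and SD (n = 2). Both WT libraries are above both transgenic ones for *nrg1*, *hbegfb* stands high in WT replicate 2 at 5833, and *erbb2* stands low in Tg(hsp70l:sflt4) replicate 2 at 10.

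*nrg1* (chromosome 10, 7284121 to 7472359, minus strand, danRer11), the gene for the cardiomyocyte mitogen neuregulin 1, had few reads in every library. It gave 27 and 37 normalized reads in the WT pools versus 17 and 24 in the transgenic pools. The transgenic values were both below the WT values, as was the case for 21.4% of all genes tested. The means were 32.0 ± 7.07 and 20.5 ± 4.95 (SD, n = 2 per group), and the log2 difference was -0.62 (SE 0.45, adjusted p = 0.642 by limma). Its 95% interval ran from -1.73 to 0.49, so both a fall to 0.302 of the WT level and a rise to 1.40 times that level were within it. At this depth counting error alone was wide. Taking the values as read counts, the exact Poisson 95% interval was 26.1 to 51.0 in the highest library and 9.90 to 27.2 in the lowest, and these overlap. Intervals of this kind cover counting error only, and their overlap does not show that counting error accounts for the gap. The WT libraries were also the higher ones in summed heart muscle and thrombocyte markers and the lower ones in macrophage markers. They were higher too in the skeletal muscle sum, but that was nearly all *ckma*, and *mybpc2b* and *tnnt3b* of that list went the other way. The largest part of the thrombocyte sum was *thbs1b*. The values are given above, and single genes of the other lists also went the other way or overlapped. Sums of the other lists overlapped between the groups. The part of these markers in the *nrg1* values was not tested. Leaving out each library in turn gave log2 differences of *nrg1* from -0.86 to -0.38, all below 0.

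*nrg2a* (chromosome 21, 28554716 to 28737321, minus strand) encodes neuregulin 2a, the neuregulin required for trabeculation in the zebrafish embryo. It gave 367 and 248 normalized reads in the WT pools versus 394 and 338 in the transgenic pools. The groups overlapped, and WT replicate 2 was the lowest library. The means were 307.5 ± 84.1 and 366.0 ± 39.6 (SD, n = 2), with a log2 difference of 0.27 (SE 0.25, adjusted p = 0.711 by limma) and a 95% interval from -0.33 to 0.88. Leaving out WT replicate 1 gave a difference of 0.56, and leaving out WT replicate 2 gave -0.0081. Its span overlaps *puraa* and an unnamed coding gene, both on the other strand. The library kit marks strand, but the sources used here do not say whether counting used it, and reads shared with those genes cannot be told apart. The ratio of *nrg2a* to *nrg1* reads, in which gene length is the same for every library, was 13.6 and 6.70 in the WT pools versus 23.2 and 14.1 in the transgenic pools. Both transgenic libraries had the higher ratio, but WT replicate 1 and Tg(hsp70l:sflt4) replicate 2 had nearly the same one. The ratio carries the wide counting error of *nrg1*, which had 17 to 37 reads per library.

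Reads of *hbegfb* relative to those of *hbegfa* were highest in WT replicate 2. *hbegfa* (chromosome 14, 7048930 to 7051940, plus strand), for a heparin-binding Egf-like growth factor, gave 1900 and 2634 normalized reads in the WT pools versus 2648 and 2303 in the transgenic pools. The groups overlapped, and WT replicate 1 was the lowest library. The means were 2267 ± 519 and 2475.5 ± 244 (SD, n = 2), with a log2 difference of 0.14 (SE 0.20, adjusted p = 0.817 by limma) and a 95% interval from -0.35 to 0.63.

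*hbegfb* (chromosome 21, 30161295 to 30168949, minus strand), for the other heparin-binding Egf-like growth factor, gave 1768 and 5833 normalized reads in the WT pools versus 2823 and 2766 in the transgenic pools. The WT libraries were the lowest and the highest of the 4, with the transgenic ones close together between them. The gap of 3.30-fold within WT was wider than that of 96.9% of all genes tested, and the gap of 1.02-fold within Tg(hsp70l:sflt4) was wider than that of 8.19%. The means were 3800.5 ± 2874 and 2794.5 ± 40.3 (SD, n = 2), with a log2 difference of -0.20 (SE 0.52, adjusted p = 0.915 by limma) and a 95% interval from -1.50 to 1.098. The direction depended on which WT library was kept. Without WT replicate 1, *hbegfb* was 1 of 217 genes that passed the test, as lower in Tg(hsp70l:sflt4), at a log2 difference of -1.06 (adjusted p = 0.0450 by limma). Without WT replicate 2 the difference was 0.66 (adjusted p = 0.143 by limma). In both fits the remaining WT library is assumed to vary as the transgenic libraries do. The heat-shock gene *hsp70l* ranked the libraries in the same order as *hbegfb*, at 461 and 4264 in the WT pools versus 1191 and 647 in the transgenic pools. For *hbegfb* the order of the transgenic libraries rests on the 1.02-fold gap, and *hsp70l* had them further apart. *hsp70l* was picked for that comparison after its values were seen, and its part in the *hbegfb* values was not tested.

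**Figure D2:**
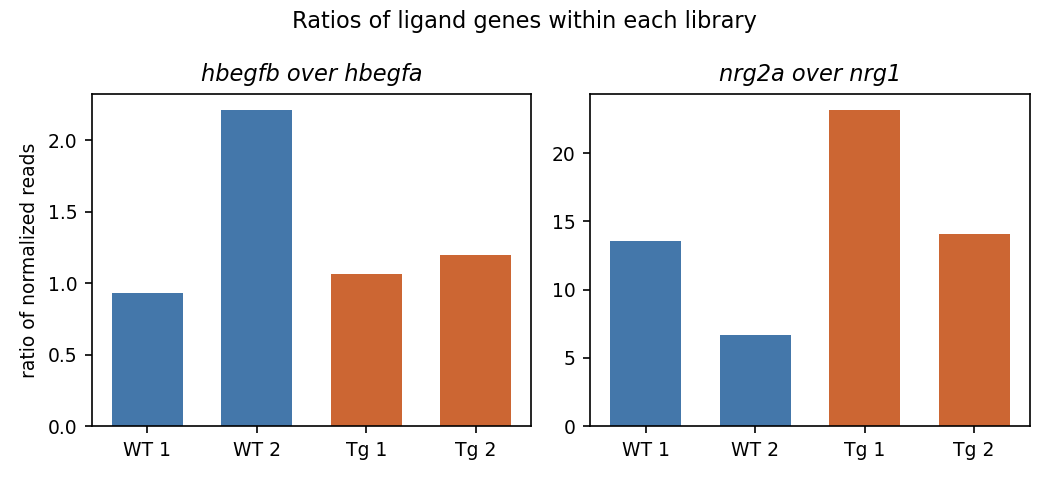
Ratio of normalized reads of *hbegfb* to *hbegfa* (left) and of *nrg2a* to *nrg1* (right) in each library, WT in blue and Tg(hsp70l:sflt4) in orange, axes from 0. WT replicate 2 has the highest *hbegfb* to *hbegfa* ratio, 2.21, and the lowest *nrg2a* to *nrg1* ratio, 6.70. The *nrg2a* to *nrg1* ratio rests on the few reads of *nrg1*.

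Within a library the ratio of *hbegfb* to *hbegfa* reads was 0.931 and 2.21 in the WT pools versus 1.07 and 1.20 in the transgenic pools. WT replicate 2 stood above the other libraries, whose ratios were close together. The ratio is compared between libraries only, since transcript lengths were not used and it does not say which paralogue was expressed more.

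Of the receptors, *egfra* (chromosome 2, 3696038 to 3820159, plus strand), the receptor for Hbegf and other Egf-like ligands, was the most even member. It gave 596 and 683 normalized reads in the WT pools versus 600 and 513 in the transgenic pools. The groups overlapped by a margin of a few reads, between WT replicate 1 and Tg(hsp70l:sflt4) replicate 1. The means were 639.5 ± 61.5 and 556.5 ± 61.5 (SD, n = 2), with a log2 difference of -0.20 (SE 0.17, adjusted p = 0.687 by limma). Its 95% interval, from -0.61 to 0.21, was the narrowest of the 6 members and leaves out a fall below 0.653 of the WT level. The log2 difference was between -0.31 and -0.089 when each library was left out in turn.

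*erbb2* (chromosome 12, 9360316 to 9438227, minus strand), the partner chain for the neuregulin receptors, gave 38 and 32 normalized reads in the WT pools versus 41 and 10 in the transgenic pools. Tg(hsp70l:sflt4) replicate 2 stood below the other libraries, which lay close together. The gap of 3.82-fold within Tg(hsp70l:sflt4) was wider than that of 98.8% of all genes tested. Taking the values as read counts, the exact Poisson 95% intervals were 4.80 to 18.4 in replicate 2 and 29.4 to 55.6 in replicate 1. These did not overlap. They are approximate, since the values are normalized and rounded, and replicate 2 was looked at because it stood low. The part of counting error in this gap was not tested. The means were 35.0 ± 4.24 and 25.5 ± 21.9 (SD, n = 2), with a log2 difference of -0.74 (SE 0.70, adjusted p = 0.726 by limma) and a 95% interval from -2.47 to 0.99. Without Tg(hsp70l:sflt4) replicate 2 the difference turned to 0.23, and without replicate 1 of that group it was -1.71 (unadjusted p = 0.0470 and adjusted p = 0.797 by limma). Replicate 2 was also the library with the highest summed levels of macrophage markers (40115) and erythrocyte markers (47563 against 18974 to 34634). The erythrocyte sum covers 4 of 5 genes, as *hbba1* had no unique row. Replicate 2 was highest as well in neuron markers (311 against 110 to 199, 5 of 8 genes). The same held for Schwann cell and glia markers (1519 against 1141 to 1449, 7 of 7 genes). By gene it was the highest library for 6 of 7 macrophage genes (*csf1ra* was lowest there), 4 of 5 neuron genes, 2 of 7 Schwann cell and glia genes (*mpz* read 208 there and 378 in WT replicate 1) and 1 of 4 erythrocyte genes, *hbaa1*. Tg(hsp70l:sflt4) replicate 2 was the lowest library in summed epicardium markers (18210 against 19465 to 22161) and skeletal muscle markers (36696 against 38837 to 52224). It was also lowest, narrowly, in endothelium markers (40546 against 40597 to 45166). Single genes went the other way, such as *egfl7* of the endothelium list, highest there at 2207. The skeletal muscle sum was nearly all *ckma*. Another gene of that list, *mybpc2b*, was highest in Tg(hsp70l:sflt4) replicate 2 at 190, against 105 in replicate 1 and 0 and 0 in the WT pools. No gene of these lists was at 0 in all libraries, and their part in the *erbb2* values was not tested.

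A further receptor row is named *si:ch73-383l1.1* in the table (chromosome 1, 7189856 to 7448795) and is paired with the symbol ERBB4 by the reference table of gene names. It is not one of the 6 members, since the table's own symbol differs. It gave 14 and 18 normalized reads in the WT pools versus 21 and 19 in the transgenic pools, so both transgenic libraries stood higher than both WT ones by a few reads, as was the case for 21.8% of all genes tested. The log2 difference was 0.31 (SE 0.48, adjusted p = 0.835 by limma).

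**Figure D3:**
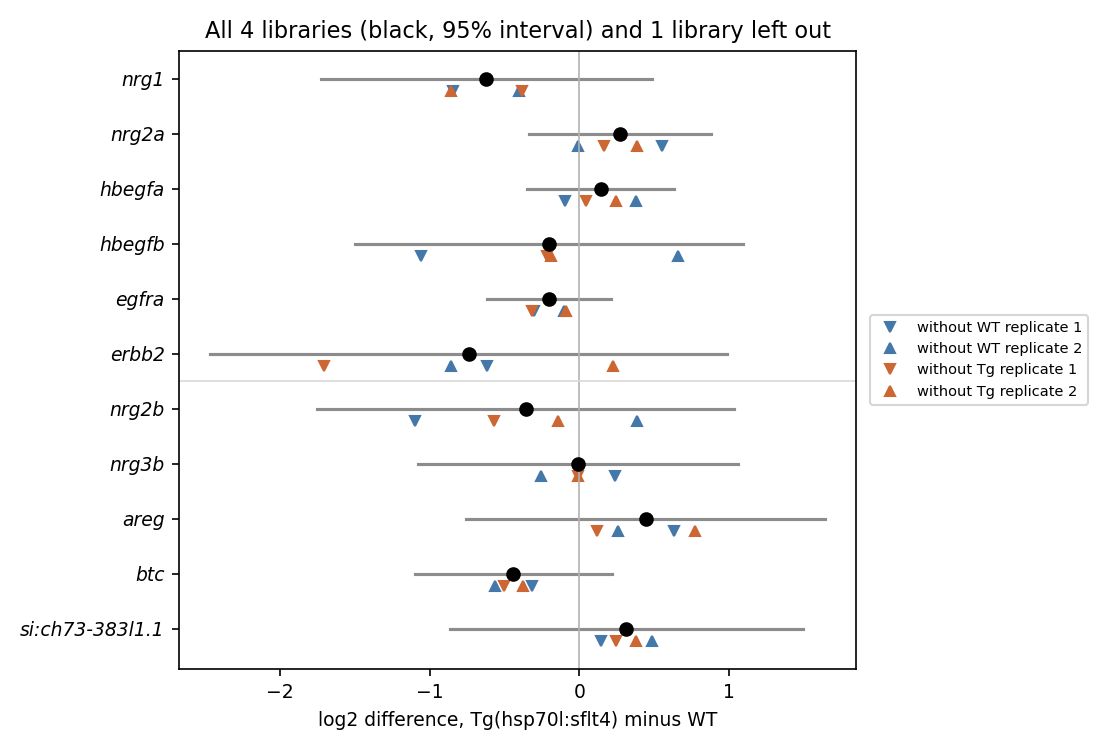
Log2 difference of Tg(hsp70l:sflt4) minus WT (horizontal axis) for the 6 members, above the grey line, and 5 further family genes, below it. Black points with grey bars are limma estimates from all 4 libraries with 95% intervals, each of which includes 0, and triangles are estimates with 1 library left out. The triangles of *hbegfb* lie on both sides of 0, at -1.06 without WT replicate 1 and 0.66 without WT replicate 2.

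Of 9 other ligand genes listed, 4 had a row, and none passed the test or had an unadjusted p under 0.05. *btc*, for betacellulin, an Egfr and Erbb4 ligand, gave 132 and 111 normalized reads in the WT pools versus 93 and 85 in the transgenic pools. Like *nrg1* it had both WT libraries above both transgenic ones, with a log2 difference of -0.44 (SE 0.27, adjusted p = 0.580 by limma). *areg*, for amphiregulin, an Egfr ligand, was low at 21 and 16 against 32 and 20, and its groups overlapped. *nrg2b*, the paralogue of *nrg2a*, gave 30 and 86 in the WT pools versus 46 and 34 in the transgenic pools. As with *hbegfb*, its WT libraries were the lowest and the highest, and its log2 difference was -1.101 with WT replicate 1 left out and 0.39 with WT replicate 2 left out. *nrg3b*, for neuregulin 3b, was even at 30 and 21 against 25 and 25.

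Genes that act around the ligands and receptors gave no call, as was the case for all genes tested. The lists for ligand shedding, receptor dampening and adaptors, with the 4 other ligand genes, held 41 genes tested. Of these, 22 had the higher mean log2 value in Tg(hsp70l:sflt4) and 19 the lower one, with a median log2 difference of 0.022, beside -0.010 over all genes tested. An unadjusted p under 0.05 was reached by 3 of the 41 (7.32%), a lower share than the 11.0% of all genes, and the groups did not overlap for 11 (26.8%), beside 43.2%.

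Shedding genes (13 of 16 with a row, median log2 difference 0.047) held 2 of those 3. *adam19b*, for a metalloprotease of the family that cuts neuregulins, gave 475 and 565 normalized reads in the WT pools versus 794 and 907 in the transgenic pools. Both transgenic libraries stood above both WT ones, with a log2 difference of 0.71 (SE 0.17, unadjusted p = 0.0059 and adjusted p = 0.313 by limma). *rhbdf1b*, for an inactive rhomboid that in mammals governs the maturation of Adam17, gave 61 and 109 in the WT pools versus 26 and 44 in the transgenic pools. Here WT was the higher group, with a log2 difference of -1.24 (SE 0.45, unadjusted p = 0.0350 and adjusted p = 0.425 by limma). Its paralogue *rhbdf1a* gave 2451 and 3456 against 3164 and 4051. The main ligand sheddase gene *adam17a* gave 2707 and 3321 in the WT pools versus 3058 and 2827 in the transgenic pools, with overlapping groups. *adam10a*, for another sheddase, gave 11919 and 8478 against 9674 and 9052.

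Genes that dampen Erbb signaling (8 of 10 with a row) had a median log2 difference of -0.0073, and none had an unadjusted p under 0.05. *errfi1a*, for a feedback inhibitor of the Egfr kinase, gave 2498 and 2057 in the WT pools versus 2489 and 2118 in the transgenic pools, so the groups had nearly the same values. *lrig2*, from a family of transmembrane regulators of growth factor receptors, had the smallest p at 1146 and 1043 against 923 and 872 (log2 difference -0.28, SE 0.14, adjusted p = 0.512 by limma). *cblc*, for a ubiquitin ligase of the Cbl family, followed at 42 and 43 against 30 and 23 (log2 difference -0.67, SE 0.38, adjusted p = 0.559 by limma).

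Adaptor and effector genes (16 of 17 with a row) had a median log2 difference of 0.12, with 11 positive and 5 negative. Among them *stat5a*, for a transcription factor that Erbb4 activates in mammals, gave 47 and 51 normalized reads in the WT pools versus 99 and 75 in the transgenic pools. The transgenic libraries were the higher ones, with a log2 difference of 0.80 (SE 0.32, unadjusted p = 0.0467 and adjusted p = 0.447 by limma). The general adaptor genes *shc1* (1874 and 2210 against 1944 and 2041) and *sos1* (1282 and 1553 against 1150 and 1418) overlapped between groups.

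The deposited annotation puts 94 genes in the KEGG term ErbB signaling pathway, *nrg1*, *hbegfa*, *egfra* and *erbb2* among them. The term shares genes with the lists above, such as *btc*, *cblc*, *sos1* and *stat5a*, so its shares are not independent of theirs. The median log2 difference of the term was 0.015, with 48 genes positive and 46 negative. The groups did not overlap for 40 genes (42.6%), near the 43.2% of all genes tested, and an unadjusted p under 0.05 was reached by 7 (7.45%), below the 11.0% of all genes. Leaving the 4 members out moved the median to 0.022. Sorted by branch, a sorting made after the values were seen, the median was -0.071 for 14 Ras, Raf, Mek and Erk genes and 0.087 for 21 genes of PI3-kinase, Akt and mTOR. It was 0.091 for 16 genes of Src, Fak, Abl, Pak and Nck, -0.12 for 11 genes of phospholipase C, protein kinase C and CaMKII, and 0.056 for 14 genes of the JNK branch and nuclear targets. For the 18 ligand, receptor, adaptor and Cbl genes, which hold the 4 members, it was -0.022, with 7 positive and 11 negative and none at an unadjusted p under 0.05. No branch had a gene that passed the test, but no gene of the whole table did.

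**Figure D4:**
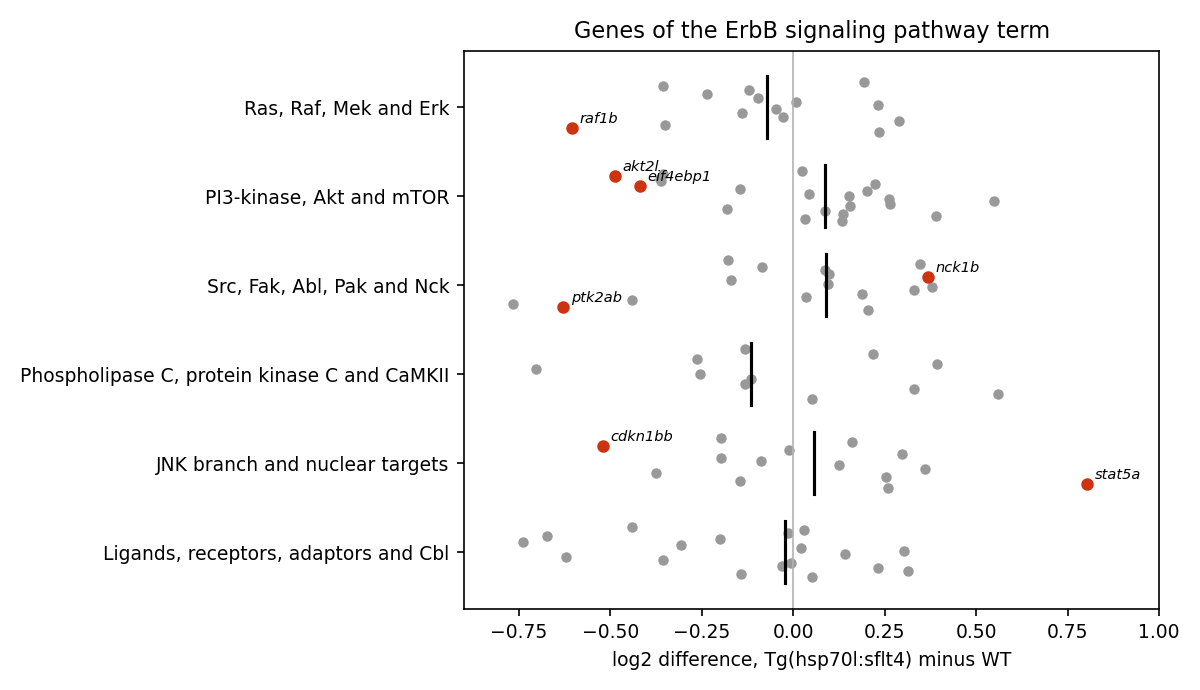
Log2 difference of Tg(hsp70l:sflt4) minus WT for the 94 genes of the ErbB signaling pathway term, by branch. Each point is a gene, red with its name where the unadjusted p was under 0.05, and black bars are medians, which lie between -0.12 and 0.091. The vertical place of a point within its branch has no meaning.

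The 7 genes at an unadjusted p under 0.05 were 5 with lower and 2 with higher values in Tg(hsp70l:sflt4). The lower ones included *eif4ebp1*, for a repressor of translation that mTOR inactivates, at 2572 and 2582 in WT against 1890 and 1967 (log2 difference -0.42, SE 0.13, adjusted p = 0.376 by limma). *raf1b*, for a Raf kinase, gave 784 and 1162 against 654 and 601, and *ptk2ab*, for focal adhesion kinase, gave 738 and 1152 against 595 and 597. In both, the WT libraries differed more from each other than the transgenic ones did. *akt2l*, an Akt kinase gene, gave 613 and 523 against 402 and 405, and *cdkn1bb*, for a cyclin-dependent kinase inhibitor, gave 666 and 962 against 551 and 564. For *akt2l* and *cdkn1bb* too, the WT libraries were further apart than the transgenic ones. Besides *stat5a*, the higher gene was *nck1b*, for an adaptor protein, at 1870 and 2040 against 2419 and 2633 (log2 difference 0.37, SE 0.14, adjusted p = 0.430 by limma). With libraries scaled to equal totals, the 5 lower genes had unadjusted p-values from 0.057 to 0.11 by limma. Both higher genes stayed under 0.05 with that scaling. In limma without trend and robust moderation, *akt2l* and *stat5a* alone stayed under 0.05. Other settings moved *stat5a* above it, to an unadjusted p by limma of 0.057 with a mean of at least 50. It was 0.051 with upper-quartile scaling and 0.055 with a block by replicate number. For *cdkn1bb* it was 0.054 with a mean of at least 50 and 0.055 by limma-voom. The Erk gene *mapk3* was even at 3082 and 3091 in the WT pools versus 3028 and 3025 in the transgenic pools.

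Genes with a profile like that of a member were sought over the 4 libraries, as the smallest root mean square distance between log2 values centred on each gene's mean. The candidates were genes with a plain symbol and a mean of at least 100. Nearest to *nrg1* were *phkg1b* (distance 0.058), a phosphorylase kinase gene with 704 and 1008 normalized reads in the WT pools versus 483 and 608 in the transgenic pools, *asmt2* (0.074) and *fam184b* (0.075). Nearest to *erbb2* were *fhl2b* (0.17), a LIM-domain gene with 240 and 195 against 217 and 79, *gpib* (0.19), for the glycolytic enzyme glucose-6-phosphate isomerase, and *trak2* (0.24). For *hbegfb*, added after its values were seen, they were *cyp27c1* (0.13) at 490 and 1697 against 739 and 637, the heparanase gene *hpse* (0.14) at 250 and 637 against 379 and 367, and the chemokine gene *cxcl18b* (0.16) at 1799 and 6185 against 3695 and 2745. With 4 libraries such nearness is common for members that vary little. As many as 584 of 10368 candidates lay within 0.1 of *egfra* and 265 within 0.1 of *hbegfa*, against 11 for *nrg1* and 0 for *hbegfb* and *erbb2*. The profiles of *nrg1* and *erbb2* rest on few reads with wide counting error, and that of *erbb2* mainly on its 10 reads in Tg(hsp70l:sflt4) replicate 2. The genes named as nearest to them are therefore not shown to vary with them.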

How the data were processed

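RNA of 4 libraries was sequenced. The submitters' processing notes list Trimmomatic 0.38 beside FastQC, DESeq2 1.18.1, Subread with featureCounts 1.6.3, and build danRer11, without saying what each was used for. Which aligner was run: not given in the sources used here. Deposited values have the unit score: the table calls itself normalized, the values are whole numbers and library medians are nearly equal, so they were read as counts that the authors scaled per library and rounded, and no count test was used. The lowest mean in the deposited table was 4.25. Columns were matched to samples through titles.

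Values were tested with limma (version 3.58.1, R 4.3.3), applied to log2(value + 1) with trend and robust moderation and no covariate, for genes with a mean of at least 10. The log scale understates folds of low genes. Values were simulated for this comparison over 17071 genes, with noise independent between genes. Of genes changed by 2 and by 4 on the log2 scale, 99 of 100 and 100 of 100 were called, with 14 false calls. The changed genes were drawn from those with a mean of at least 100, and the spread beyond counting error was set alike for all genes. These counts therefore do not cover genes with few reads, such as *nrg1* and *erbb2*, or uneven ones such as *hbegfb*. Changes as small as the log2 differences of the members, which ran from -0.74 to 0.27, were not simulated. Members and lists were chosen with earlier results of these data known. Named were all members, all other ligand genes and, per list, genes with an unadjusted p under 0.05 or else the 2 with the smallest p; *rhbdf1a*, *adam17a*, *adam10a*, *errfi1a*, *shc1*, *sos1*, *mapk3* and *hsp70l* were added after values were seen. A row was found for 41 of the 54 symbols in the pathway lists, 1 of them through its gene ID. No sequences are shown, and alternatives are given below.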

Additional observations from a re-analysis of the deposited data

How the results depend on the processing

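The count of 0 genes called by limma held under other pseudocounts (0.5 and 5), filters (none, or a mean of at least 50), scalings, limma without trend and robust moderation, limma-voom and the replicate block. Leaving out each library in turn, with the same genes tested, gave 0 to 217 called genes and 695 to 2771 at an unadjusted p under 0.05, and 0 to 1 members called and 0 to 2 members at an unadjusted p under 0.05. The called counts were 217 without WT replicate 1 and 73 without WT replicate 2, and the member was *hbegfb*. The filter of 50 removed *nrg1* and *erbb2*. The block by replicate number gave 0 calls and 2285 genes at an unadjusted p under 0.05. The numbers are not shown to pair libraries (correlation of deviations 0.14 over genes).

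With 1 library left out, log2 differences ran from -0.0081 to 0.56 for *nrg2a*, -0.093 to 0.38 for *hbegfa*, -1.06 to 0.66 for *hbegfb*, -1.71 to 0.23 for *erbb2*, -1.101 to 0.39 for *nrg2b* and -0.25 to 0.24 for *nrg3b*, and *nrg1* and *egfra* stayed below 0. Scaling to equal totals moved the median gene from -0.010 to 0.099 and *nrg3b* to 0.10, and turned 951 higher and 930 lower genes at an unadjusted p under 0.05 into 1584 and 549. Levels per kilobase were not run, as no transcript length was used. Few reads limit *nrg1*, *erbb2*, *areg*, *nrg2b*, *nrg3b* and the ERBB4 row.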

Other observations

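The Hbegf and neuregulin 2 genes lie near each other in both of their copies, by the coordinates of the deposited table (danRer11). On chromosome 21, *nrg2a* and *hbegfb* are 1.42 Mb apart on the minus strand, with 17 genes of the table between them. On chromosome 14, *hbegfa* and *nrg2b* are 1.22 Mb apart on the plus strand, again with 17 genes between. A *cxxc5* gene lies between each pair, *cxxc5a* on chromosome 21 and *cxxc5b* on chromosome 14. On chromosome 21, WT replicate 2 held the highest value of *hbegfb* (5833) and the lowest of *nrg2a* (248). On chromosome 14, WT replicate 1 held the lowest value of both *hbegfa* (1900) and *nrg2b* (30). Tg(hsp70l:sflt4) replicate 2 held the next lowest (2303 and 34). For *nrg2b* that order is not resolved, as the exact Poisson intervals of those libraries overlap (20.2 to 42.8 and 23.5 to 47.5). The upper libraries changed places. *hbegfa* was highest in Tg(hsp70l:sflt4) replicate 1 (2648, against 2634 in WT replicate 2). *nrg2b* was highest in WT replicate 2 (86, against 46 in Tg(hsp70l:sflt4) replicate 1). Whether neighbours share a profile was not tested.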
